A study of Mus musculus with 6 samples.

Results

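The MHC class I and peptide loading genes H2-K1, H2-D1, B2m, H2-T23, H2-Q4, H2-Q7, Tap1, Tap2, Tapbp and Nlrc5 were examined in the aging mouse cerebral cortex. They were chosen by name, and all 10 were found among the 55421 genes measured and had enough counts to be tested. At 24 months the classical heavy chain genes H2-K1 and H2-D1 together stood at 1.41 times their 6-month level in TPM (read counts scaled for gene length and library size), while for B2m, which encodes the light chain that pairs with every heavy chain, the ages overlapped. The other differences rested on fewer reads or on groups that overlapped.

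The study compared the cortex transcriptome of 3 mice of 6 months of age (mice 10, 11 and 17) with that of 3 mice of 24 months of age (mice 2, 4 and 5). All 6 were male WT mice of the C57BL/6J strain, were anesthetized with isoflurane before sampling and had no other treatment or allele in their labels. Each library came from the cortex of 1 mouse and from 10 ng of total RNA, prepared with a low-input kit and read from a single end. The numbers of the mice are names, and no mouse of one age was matched to a mouse of the other.

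MHC class I molecules carry peptides made inside the cell to its surface, where CD8 T cells and natural killer cells read them. A heavy chain (from H2-K1 or H2-D1 for the classical molecules of this strain, or from H2-T23, H2-Q4 or H2-Q7 for the nonclassical ones) folds with B2m in the endoplasmic reticulum, the transporter made of Tap1 and Tap2 brings in peptides, and Tapbp (tapasin) holds the empty molecule at the transporter until a peptide fits. Nlrc5 is a transactivator of the class I promoters, and the pathway is induced by interferons. In the healthy brain, class I genes are known from microglia and endothelial cells and, at lower levels, from neurons.

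Of the 5 heavy chain genes, 4 shared much of their promoter sequence, which the choice of the genes did not use. Promoter sequences of 8 of the 10 genes were at hand (RefSeq, build GRCm38.p6). In the 250 bases before each start, 3 motifs were searched on both strands: GGGANTNCC (like a kappaB site), GAANNGAA and TGACG (like the CREB site in the X2 box of class I promoters). GAANNGAA is called the interferon core here and is the spelling of the interferon-stimulated response element in H2-K1. Other spellings of that element were not searched. The interferon core lies on the other strand in the promoters below and reads there as TTCNNTTC, and no matches overlap. The promoters of H2-K1, H2-Q7 and H2-Q4 are shown because they carry all 3, in capitals, and all 3 genes lie on chromosome 17, at chr17:34000348-34000597 on the minus strand for H2-K1, chr17:35438905-35439154 on the plus strand for H2-Q7 and chr17:35379367-35379616 on the plus strand for H2-Q4.
H2-K1: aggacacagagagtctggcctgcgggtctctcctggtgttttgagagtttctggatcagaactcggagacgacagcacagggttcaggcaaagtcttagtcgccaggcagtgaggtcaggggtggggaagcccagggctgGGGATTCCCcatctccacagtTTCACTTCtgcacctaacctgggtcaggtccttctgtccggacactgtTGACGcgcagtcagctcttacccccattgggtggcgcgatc
H2-Q7: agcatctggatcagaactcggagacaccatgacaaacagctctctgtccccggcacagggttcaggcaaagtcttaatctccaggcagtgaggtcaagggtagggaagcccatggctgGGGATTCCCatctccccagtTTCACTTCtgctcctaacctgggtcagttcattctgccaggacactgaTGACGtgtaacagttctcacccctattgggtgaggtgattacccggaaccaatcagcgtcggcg
H2-Q4: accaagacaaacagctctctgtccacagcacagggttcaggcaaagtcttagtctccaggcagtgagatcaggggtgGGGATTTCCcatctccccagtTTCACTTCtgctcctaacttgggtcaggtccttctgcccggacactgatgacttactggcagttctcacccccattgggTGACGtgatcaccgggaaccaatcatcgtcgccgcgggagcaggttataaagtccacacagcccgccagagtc

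The kappaB-like letters began 110 bases before the start of H2-K1, 132 before that of H2-Q7 and 173 before that of H2-Q4. The interferon core followed 21 bases downstream in H2-K1 and H2-Q4 and 20 in H2-Q7, and TGACG came 48 bases after it in H2-K1 and H2-Q7. In H2-Q4 the nearest TGACG lay 79 bases after the core. H2-D1 also held all 3, with the spacing of H2-K1 (21 and 48 bases), but its window is not printed because GENCODE places all 250 of its bases in a longer first exon of H2-D1. Over the aligned bases the window of H2-K1 was 89.5% identical to that of H2-D1, 87.2% to that of H2-Q4 and 79.2% to that of H2-Q7.

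None of the windows of B2m, H2-T23, Tap1 and Tapbp held GGGANTNCC or GAANNGAA, and of these 4 B2m and Tap1 held TGACG. The B2m window held gaaactgaaa and the H2-T23 window tttctctttc, letters close to the interferon core that the search did not cover. So no interferon element can be called missing there. In GENCODE 154 of the 250 bases of the H2-T23 window and 146 of the Tapbp window lie in exons of the gene itself, so these windows may miss other upstream sequence. All 3 motifs stood together in 29 of the 27025 promoters with a window (0.107%), of which 4 were those of H2-K1, H2-D1, H2-Q4 and H2-Q7. Singly they were found in 3.33% (GGGANTNCC), 17.4% (GAANNGAA) and 17.8% (TGACG) of all promoters. These are matches of letters, and no binding was measured here.

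The 6 libraries held 29495379 to 36494240 counts, and 32905 genes with at least 10 counts in all were tested. Adjusted p-values are those of the quasi-likelihood test of edgeR on TMM-scaled counts, adjusted over all genes tested by the Benjamini-Hochberg method (false discovery rate, FDR), and fold changes are for 24 against 6 months. The median log2 fold change of the genes with a mean of at least 5 CPM (counts scaled for library size) was -0.19 with TMM scaling and 0.00 with library totals only. A read density was taken over 2065 sensory receptor genes. It was 0.0198 to 0.0229 CPM per exonic kb at 6 months and 0.0542 to 0.0925 at 24 months. It is given below as the count that each gene would have at that density, called the expected background. The study itself reads higher mRNA of sensory perception genes in the aging cortex as gene activation. Whether the reads over sensory receptor genes are background or expression was not tested. The expected background and its subtraction rest on the assumption that they are background. The neuron markers Snap25 (1997 to 2982 TPM over the 6 mice) and Syn1 (680.1 to 979.3 TPM) were high in every library.

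At the 1% FDR of the study, 0 of the 10 genes and 0% of all genes passed edgeR's quasi-likelihood test. The study itself reported genes called at 1% FDR with edgeR, after a filter of its own. Of the 10, 4 had an unadjusted p under 0.05 in that test, and 1 (H2-Q4) passed 1% FDR with edgeR's likelihood ratio test and with its exact test, against 0 with DESeq2. With the likelihood ratio test 4.41% of all genes passed as higher at 24 months. At 10% FDR, H2-K1, H2-D1, H2-Q4 and Nlrc5 passed the quasi-likelihood test, all higher at 24 months, and these 4 of 10 stand beside 10.0% of all genes. In 5 of 10 genes (these 4 and H2-T23) every 24-month mouse lay above every 6-month mouse in CPM, against 20.0% of all genes.

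Much of that background came from genes with few counts. Among the 11763 genes with a mean of at least 5 CPM, 0.927% passed 10% FDR as higher and 2.12% had all 24-month mice above all 6-month mice. Both shares are with TMM scaling, where the median log2 fold change of these genes was -0.19 and 22.5% passed as lower. The 6 class I genes past 5 CPM were B2m, H2-D1, Tapbp, H2-K1, Tap2 and H2-T23. Of them, 2 passed (H2-K1 and H2-D1) and 3 did not overlap. All 10 fitted changes were above 0, with a median log2 fold change of 0.45, and over the 6 genes past 5 CPM the median was 0.28.

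The 10% calls depended on single mice and on the genes tested. Without 24-month mouse 2 or 4, or without 6-month mouse 10 or 11, 0 of the 10 genes passed 10% FDR (4 or 5 had an unadjusted p under 0.05 in edgeR's quasi-likelihood test), and 4 passed without 24-month mouse 5 or 6-month mouse 17. Among all genes, 176 and 0 passed without mice 2 and 4, and 0 and 1 without mice 10 and 11. Without mouse 5, 7998 of 31275 genes passed (4364 as higher), and without mouse 17, 2476 of 32090 (1224 as higher). With a mouse left out the fitted log2 fold change was 0.40 to 0.68 for H2-K1, 0.25 to 0.44 for H2-D1, 2.12 to 2.78 for H2-Q4 and 0.91 to 1.58 for Nlrc5. None of the 10 passed when only genes with a mean of at least 1 CPM were tested (7 of the 10 genes), when the expected background was subtracted, or with limma on log2(TPM + 1), where 6, 7 and 8 genes had an unadjusted p under 0.05. In these 3 fits 66 of 15793, 28 of 25602 and 41 of 32905 genes passed in all, and the fitted changes were 0.71, 0.69 and 0.65 for H2-K1 and 0.51, 0.50 and 0.47 for H2-D1. In the fit of genes with at least 1 CPM, 2857 of the 15793 had an unadjusted p under 0.05. That share was not counted for the background and limma fits or with a mouse left out. With library totals only 7 of the 10 passed, and 12.5% of all genes passed as higher. The share among genes past 5 CPM was not counted with that scaling.

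**Figure D1:**
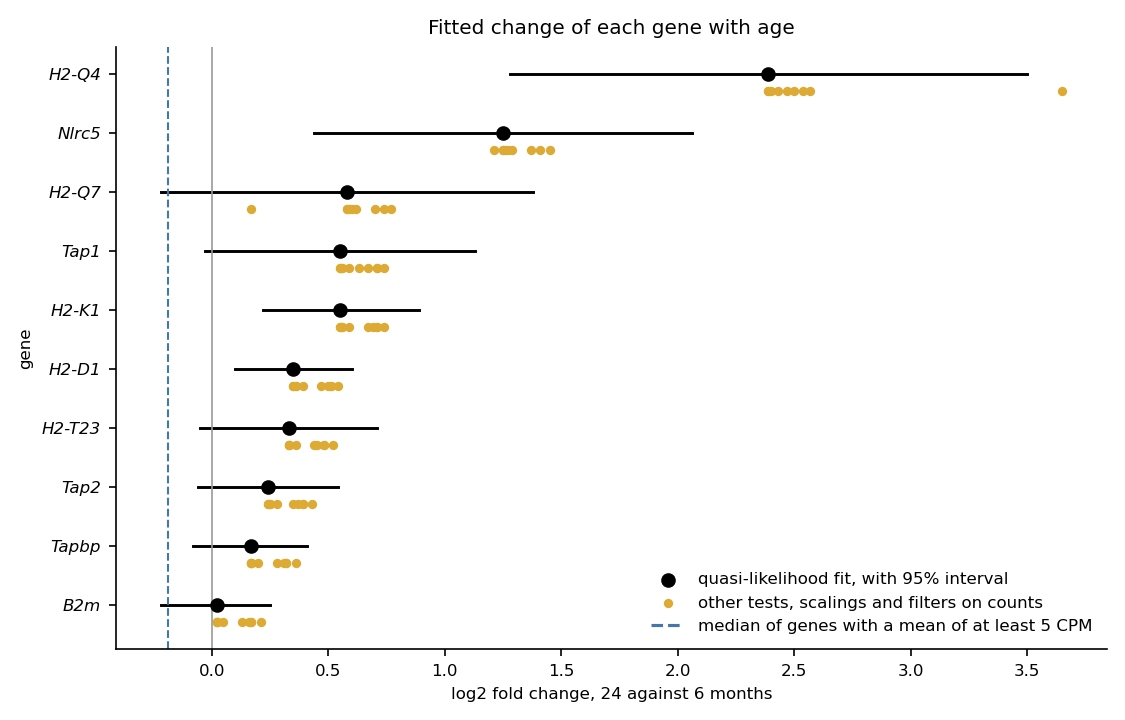
Fitted log2 fold change of each gene for 24 against 6 months (black points) with its 95% interval, and the fits with the other tests, scalings and filters on counts (yellow points; the fit on TPM is not drawn). The intervals of H2-Q4, Nlrc5, H2-K1 and H2-D1 lie above 0, and the dashed line at -0.19 is the median of genes with a mean of at least 5 CPM.

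H2-D1 and H2-K1 encode the classical heavy chains of this strain, the molecules that present peptides to CD8 T cells. H2-K1 (chromosome 17, 33996017 to 34000347, GRCm38) was at 12.5, 18.1 and 18.0 TPM in 6-month mice 10, 11 and 17 and at 26.3, 26.5 and 24.4 TPM in 24-month mice 2, 4 and 5. Every 24-month mouse was higher than every 6-month mouse, and mouse 10 was the lowest. Its mean went from 16.2 ± 3.19 to 25.7 ± 1.16 TPM (SD, n = 3 per age). The fitted log2 fold change was 0.55 with a standard error of 0.15 (95% interval 0.22 to 0.89; quasi-likelihood adjusted p = 0.0621). That change was larger than the change of 99.2% of the genes past 5 CPM.

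H2-D1 (chromosome 17, 35262730 to 35267499) was the most abundant heavy chain, with 76.8% to 80.4% of the summed TPM of the 5 heavy chain genes in each library. It was at 82.3, 102.7 and 104.6 TPM at 6 months and at 125.2, 140.9 and 133.5 TPM at 24 months. Here too the ages did not overlap and mouse 10 was the lowest. The log2 fold change was 0.35 with a standard error of 0.11 (95% interval 0.10 to 0.60; quasi-likelihood adjusted p = 0.0786), and it exceeded that of 97.7% of the genes past 5 CPM. With library totals only the change was 0.54, and for H2-K1 it was 0.74.

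The summed level of H2-K1 and H2-D1 was 94.9, 120.8 and 122.6 TPM at 6 months and 151.5, 167.4 and 157.9 TPM at 24 months. The mean went from 112.8 ± 15.5 to 158.9 ± 7.97 TPM, a ratio of 1.41 (two-sided exact permutation test over mice, p = 0.1, below which a test of 3 mice against 3 cannot go). In TMM-scaled CPM per exonic kb the ratio was 1.30. In bulk cortex, more cells of a type that expresses these genes and more RNA per cell cannot be told apart.

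**Figure D2:**
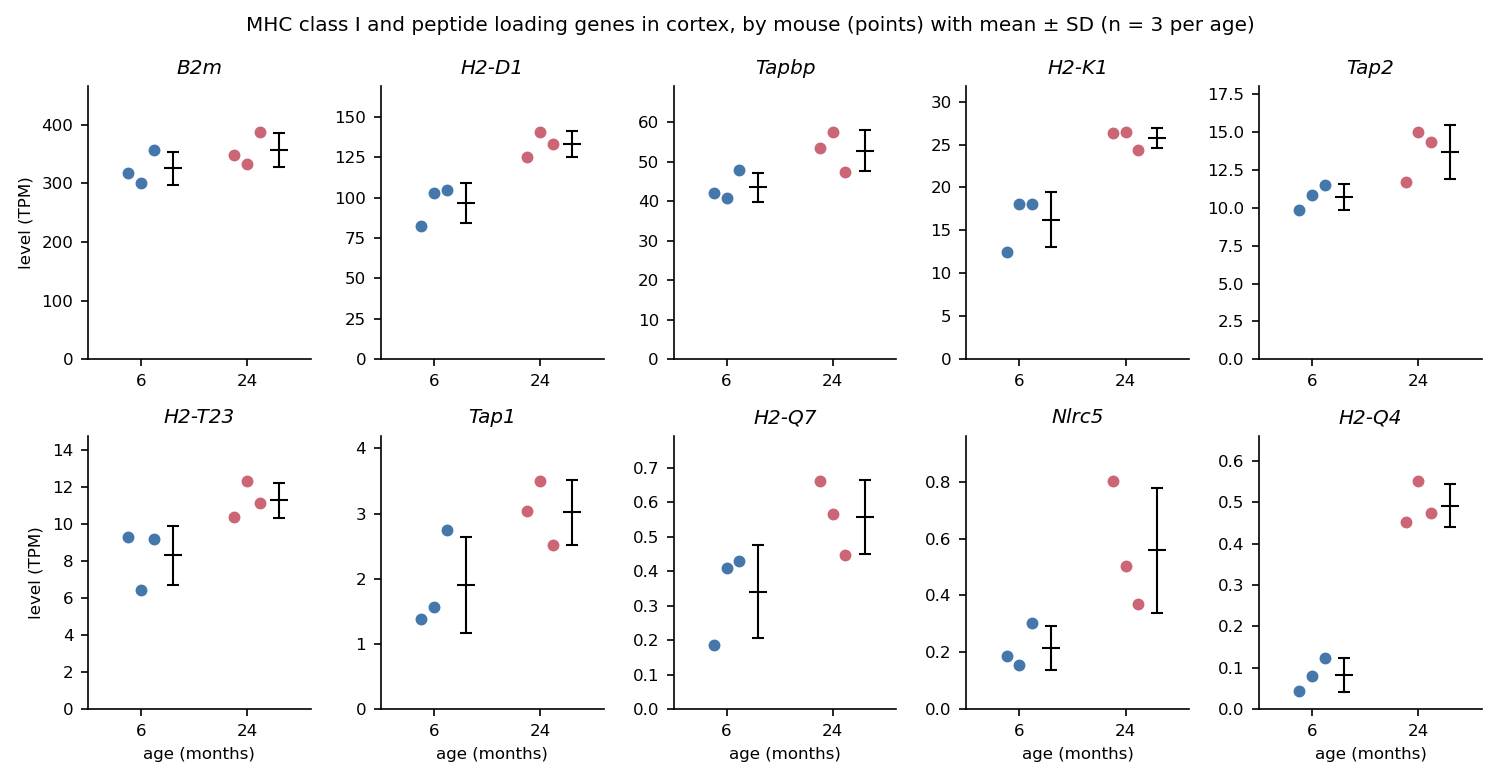
Level of each gene in TPM (vertical axes from 0) by age in months, each point 1 mouse and the bars the mean ± SD of 3 mice, with genes in order of mean level. H2-D1, H2-K1, Tap2, H2-T23, H2-Q7, Nlrc5 and H2-Q4 show all 24-month mice above all 6-month mice in TPM, whereas the ages overlap for B2m, Tapbp and Tap1.

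B2m (chromosome 2, 122147686 to 122153083) had the highest level of the 10 and rank 420 among the 55421 genes by mean TPM. It was at 317.4, 301.2 and 357.4 TPM at 6 months and at 347.5, 332.4 and 388.3 TPM at 24 months. The ages overlapped, since 6-month mouse 17 was above 24-month mice 2 and 4. The log2 fold change was 0.02 with a standard error of 0.10 (quasi-likelihood adjusted p = 0.929), and its 95% interval of -0.22 to 0.25 includes changes in either direction. With library totals only the fitted change was 0.21.

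Ratios of 2 genes within a library do not depend on the scaling between libraries, and 10 of them were computed after the values had been seen. H2-K1 over B2m was 0.0395, 0.0601 and 0.0504 at 6 months and 0.0757, 0.0797 and 0.0628 at 24 months. H2-D1 over B2m was 0.259, 0.341 and 0.293 at 6 months and 0.361, 0.424 and 0.344 at 24 months. In both the ages did not overlap, although for H2-D1 the lowest 24-month ratio (mouse 5) and the highest 6-month ratio (mouse 11) were 0.344 and 0.341. The mean ratio at 24 months was 1.46 times that at 6 months for H2-K1 and 1.26 times for H2-D1.

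H2-K1 thus differed more between the ages than H2-D1 in TPM, and H2-D1 over H2-K1 went from 6.01 ± 0.482 to 5.18 ± 0.372. Each of these 3 ratios had p = 0.1 in the two-sided exact permutation test (0.125 after Benjamini-Hochberg adjustment over the 10 ratios), the lowest value possible. H2-T23 over B2m was 0.0255 ± 0.00393 at 6 months and 0.0319 ± 0.00451 at 24 months, and here the ages overlapped (exact permutation p = 0.2, adjusted 0.222).

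**Figure D3:**
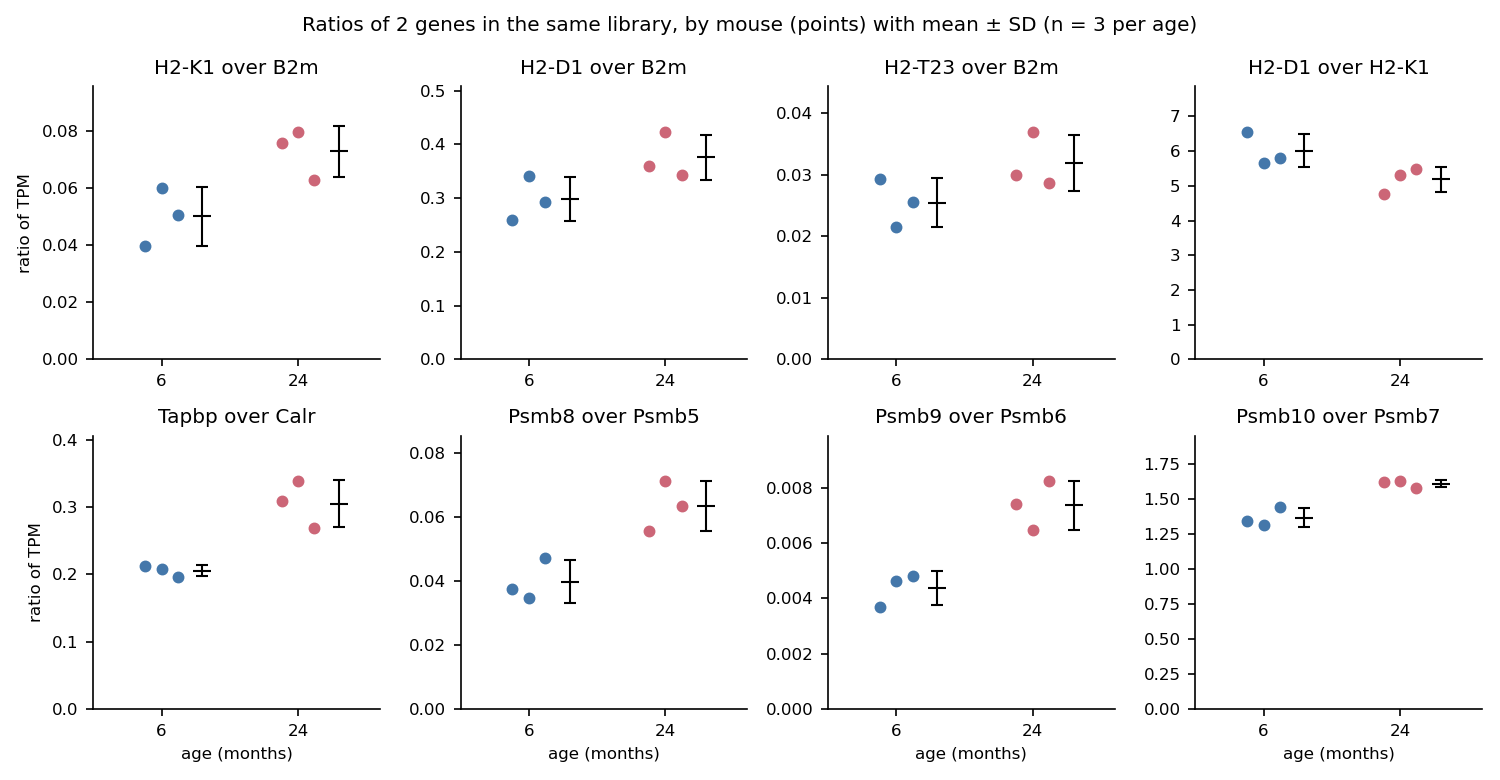
Ratios of the TPM of 2 genes in the same library (vertical axes from 0) by age in months, each point 1 mouse and the bars the mean ± SD of 3 mice. H2-K1 over B2m, H2-D1 over B2m, Tapbp over Calr and the 3 immunoproteasome ratios are higher in all 24-month mice, and H2-D1 over H2-K1 is lower.

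The nonclassical heavy chain H2-T23 encodes Qa-1, which presents a narrow set of peptides and is read by receptors of natural killer cells and CD8 T cells. H2-T23 (chromosome 17, 36029773 to 36032855) was at 9.30, 6.46 and 9.16 TPM at 6 months and at 10.4, 12.3 and 11.1 TPM at 24 months. All 24-month mice were above all 6-month mice, with mouse 11 the lowest. The log2 fold change was 0.33 with a standard error of 0.17 (95% interval -0.05 to 0.71), which did not pass 10% FDR (quasi-likelihood adjusted p = 0.215). With library totals only it was 0.52 and passed (adjusted p = 0.0909), and without mouse 11 it was 0.21.

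H2-Q7 encodes a Qa-2 heavy chain and H2-Q4 another heavy chain of the Q region, and both had few reads. H2-Q4 (chromosome 17, 35379617 to 35385290) had 1, 2 and 3 counts in 6-month mice 10, 11 and 17 and 10, 13 and 11 counts in 24-month mice 2, 4 and 5. The ages did not overlap, and the quasi-likelihood log2 fold change was 2.39 with a standard error of 0.50 (adjusted p = 0.0518). The ratio of the summed counts, 34 against 6, was 5.50 after scaling, with an exact 95% interval of 2.28 to 16.0 that covers counting error only.

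At the density over sensory receptor genes H2-Q4 would have 1.72 to 2.10 counts per library at 6 months and 4.62 to 7.08 at 24 months. That expectation equals 98.2% of its summed counts at 6 months and 53.1% at 24 months. The antisense gene Gm11131 covers 19.1% of the exonic bases of H2-Q4, and counting did not use strand. The counts of Gm11131 were 16, 12 and 17 at 6 months against 21, 41 and 27 at 24 months (log2 fold change 0.93, quasi-likelihood adjusted p = 0.0984). Of the stretches of 69 bases in the transcripts of H2-Q4, 23.6% occurred also in transcripts of other genes, most often Gm11131, so the counts of H2-Q4 are uncertain.

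In H2-Q7 (chromosome 17, 35439155 to 35443773) the counts were 7, 17 and 17 at 6 months against 24, 22 and 17 at 24 months. The ages met at 17 counts. Its log2 fold change of 0.58 with a standard error of 0.36 did not pass (quasi-likelihood adjusted p = 0.292), and the expected background was 23.6% of its counts at 6 months and 47.1% at 24 months. The fitted change was 0.17 after subtraction of that background and 0.30 without 6-month mouse 10. H2-Q7 shared 18.8% of its stretches of 69 bases with other genes, most often H2-Q10, against 3.97% for H2-K1 and 6.37% for H2-D1. STAR gives a read with several positions a mapping quality below the 15 that counting required.

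**Figure D4:**
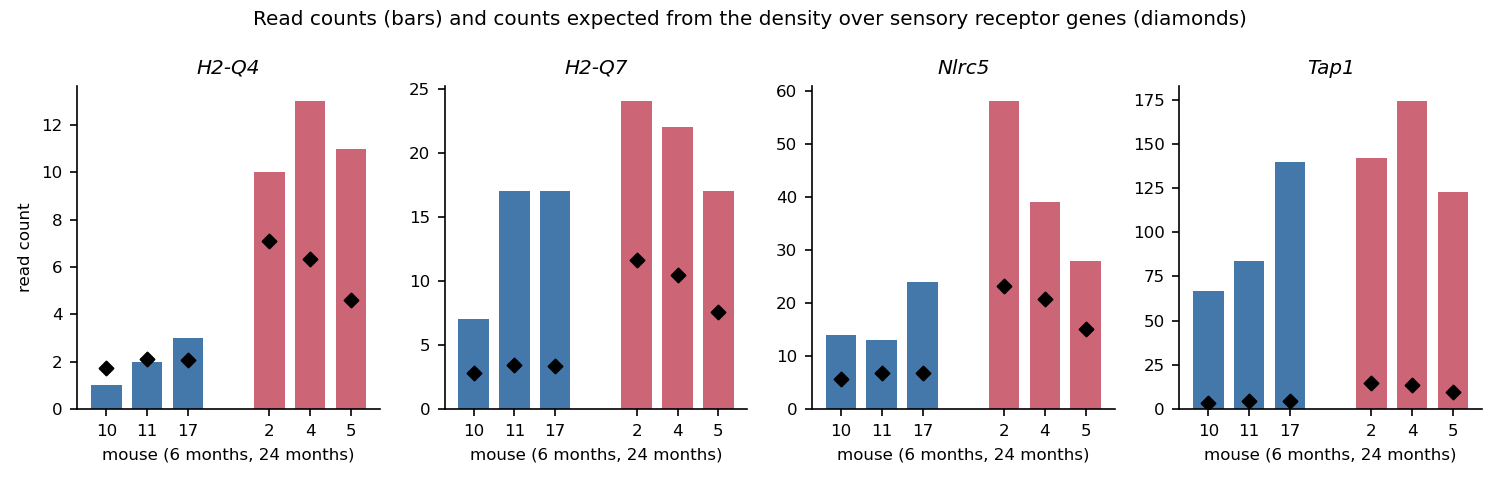
Read counts of 4 genes with few reads in each mouse (bars, from 0) and the counts expected from the density over sensory receptor genes in the same library (diamonds). For H2-Q4 the expected counts of 1.72 to 2.10 at 6 months are close to the 1 to 3 counts measured, and for Tap1 they are 4.27% and 8.67% of the summed counts of the ages.

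Tap1 and Tap2 encode the chains of the peptide transporter. Tap1 (chromosome 17, 34187553 to 34197225) was at 1.39, 1.57 and 2.75 TPM at 6 months and at 3.05, 3.50 and 2.51 TPM at 24 months. The ages overlapped because 6-month mouse 17 lay above 24-month mouse 5. The log2 fold change was 0.55 with a standard error of 0.26 (95% interval -0.03 to 1.13; quasi-likelihood adjusted p = 0.178). Without mouse 17 it was 0.91 and passed 10% FDR (adjusted p = 0.0922), whereas without 6-month mouse 10 it was 0.38 (adjusted p = 0.398) and without 24-month mouse 4 0.44 (adjusted p = 0.405).

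Tap2 (chromosome 17, 34203527 to 34216321) was at 9.83, 10.8 and 11.5 TPM at 6 months and at 11.7, 15.04 and 14.4 TPM at 24 months. In TPM the lowest 24-month mouse (mouse 2) was just above the highest 6-month mouse, while in TMM-scaled CPM the ages overlapped. Its log2 fold change was 0.24 with a standard error of 0.14 (95% interval -0.06 to 0.54; quasi-likelihood adjusted p = 0.253), and with library totals only it was 0.43 and passed (adjusted p = 0.0862). Tap1 over Tap2 was 0.175 ± 0.0556 at 6 months and 0.223 ± 0.0436 at 24 months, and the ages overlapped (exact permutation p = 0.3). Tap2 was thus the more abundant of the pair in TPM in every library.

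Tapbp (chromosome 17, 33915899 to 33929292), which bridges the transporter and the empty class I molecule, was at 42.0, 40.8 and 47.8 TPM at 6 months and at 53.4, 57.7 and 47.4 TPM at 24 months. The ages overlapped by a small margin, between mouse 17 and mouse 5. Tapbp had a log2 fold change of 0.17 with a standard error of 0.11 (95% interval -0.08 to 0.41; quasi-likelihood adjusted p = 0.328), and with library totals only 0.36, which passed (adjusted p = 0.0925). The antisense gene Gm19412, which covers 24.9% of the exonic bases of Tapbp, had 7 to 13 counts in the 6 libraries, against 1345 to 1903 for Tapbp.

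Nlrc5 (chromosome 8, 94434356 to 94527272), the transactivator, was at 0.187, 0.157 and 0.304 TPM at 6 months and at 0.802, 0.505 and 0.369 TPM at 24 months. These levels came from 14, 13 and 24 counts and from 58, 39 and 28 counts. The ages did not overlap, and mouse 2 was the highest. Its fitted log2 fold change was 1.25 with a standard error of 0.36 (95% interval 0.44 to 2.06; quasi-likelihood adjusted p = 0.0686). The expected background was 37.8% of its counts at 6 months and 47.2% at 24 months, and after subtraction the fitted change was 1.21 and did not pass 10% FDR. Its part in the difference was not tested further.

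In order of mean TPM over the 6 libraries the genes ran from B2m (340.7) and H2-D1 (114.9) through Tapbp (48.2), H2-K1 (21.0), Tap2 (12.2), H2-T23 (9.79) and Tap1 (2.46) to H2-Q7 (0.450), Nlrc5 (0.387) and H2-Q4 (0.287). From B2m to H2-Q7 each gene lay above the next in every library, although the ranges of Tap2 (9.83 to 15.04 TPM) and H2-T23 (6.46 to 12.3 TPM) overlapped between mice. H2-Q7 and Nlrc5 changed places between libraries. At 6 months H2-Q4 (0.0437 to 0.124 TPM) lay below every value of H2-Q7 (0.186 to 0.429 TPM) and Nlrc5 (0.157 to 0.304 TPM), and at 24 months the values of the 3 genes overlapped.

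The other genes of the pathway were taken from lists written with earlier results of these data known, so their counts describe the lists. Of 20 other class I and class I-like heavy chains, 5 passed 10% FDR as higher (H2-Q6, H2-Q10, H2-T3, H2-T10 and H2-Bl) and 0 as lower. Of all genes 10.0% passed as higher. The median log2 fold change of these heavy chains was 0.53, beside 0.15 for all genes tested. The most abundant were Fcgrt, the neonatal Fc receptor (48.6 ± 5.88 and 49.8 ± 9.17 TPM), and H2-T22 (13.3 ± 0.569 and 16.0 ± 1.26 TPM), and neither passed the quasi-likelihood test (adjusted p = 0.739 and 0.407). For H2-Bl, the gene of this list with the smallest p, 7, 11 and 20 counts stood against 24, 41 and 34 (log2 fold change 1.33, adjusted p = 0.0643).

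H2-T10 had 9, 13 and 15 against 21, 23 and 29 counts (log2 fold change 0.93, quasi-likelihood adjusted p = 0.0844). H2-Q10 had 1, 2 and 0 against 11, 5 and 5 counts, fewer than the expected background at both ages (329% and 144% of its counts). The 5 genes called were all of low level, whereas for the 6 heavy chains of this list past 5 CPM the median was 0.18. After subtraction of the background 0 of 15 genes still tested passed, where 28 of 25602 genes passed in all, and 13 of the 15 were above 0 with a median of 0.39.

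The chaperones that fold class I molecules together with many other proteins went the other way. Of 9 loading and trimming genes, 7 fell at 10% FDR (Calr, Canx, Pdia3, Hspa5, Ganab, Uggt1 and Sec61a1) and 0 rose, beside 8.33% of all genes and 22.5% of the genes past 5 CPM that passed as lower. Hspa5, which encodes the chaperone BiP, was at 580.3, 612.7 and 653.0 TPM at 6 months and at 426.5, 400.4 and 384.8 TPM at 24 months. Its log2 fold change was -0.72 with a standard error of 0.09 (quasi-likelihood adjusted p = 0.0312).

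Pdia3, a disulfide isomerase that works beside tapasin, fell by 0.45 on the log2 scale (standard error 0.10, quasi-likelihood adjusted p = 0.0518). Uggt1, which senses the folding of glycoproteins, fell by 0.52 (standard error 0.13, adjusted p = 0.0567) and Canx (calnexin), the most abundant, by 0.34 (standard error 0.12, adjusted p = 0.0919). These falls depended on the scaling. With library totals only 1 of the 9 genes passed, and the median of the list moved from -0.34 to -0.15. Tapbp over Calr (calreticulin), which the scaling does not touch, was 0.212, 0.207 and 0.196 at 6 months and 0.308, 0.338 and 0.269 at 24 months, so that the mean at 24 months was 1.49 times that at 6 months (exact permutation p = 0.1, adjusted 0.125).

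The immunoproteasome, an inducible form of the proteasome, cuts proteins into peptides suited to class I molecules. Of its 6 subunit and activator genes, 1 passed 10% FDR, beside 10.0% of all genes that passed as higher. This was Psmb9, which lies next to Tap1 and shares 3.87% of the exonic bases of Tap1 on the opposite strand. The counts of Psmb9 were 34, 47 and 47 at 6 months against 82, 66 and 68 at 24 months (log2 fold change 0.72, standard error 0.21, quasi-likelihood adjusted p = 0.0697). Psmb8 was at 5.39 ± 1.04 and 7.12 ± 0.702 TPM (log2 fold change 0.29, adjusted p = 0.272), and Psmb10, the most abundant, at 76.5 ± 4.97 and 77.2 ± 3.78 TPM.

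Fitted changes of Psmb10, Psme1 and Psme2 were -0.10, -0.14 and -0.03, did not pass the quasi-likelihood test, and turned to 0.09, 0.06 and 0.16 with library totals only. Of the constitutive subunits that the inducible ones replace, Psmb5 and Psmb7 fell at 10% FDR (log2 fold changes -0.37 and -0.33, quasi-likelihood adjusted p = 0.0658 and 0.0629), but 0 of the 3 passed with library totals only, and Psmb6 was at -0.02. Of the genes past 5 CPM, 22.5% passed as lower. Set against its constitutive counterpart in the same library, each inducible subunit was higher in all 24-month mice. The mean at 24 months was 1.59 times that at 6 months for Psmb8 over Psmb5, 1.69 times for Psmb9 over Psmb6 and 1.18 times for Psmb10 over Psmb7 (each exact permutation p = 0.1, adjusted 0.125).

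Of 23 transactivator and interferon signalling genes, 0 rose and 3 fell at 10% FDR, and 22 of them lay past 5 CPM, where 22.5% of all genes passed as lower. Jak1, a kinase of the interferon receptors, went from 152.8 ± 8.47 to 120.1 ± 15.6 TPM (log2 fold change -0.46, quasi-likelihood adjusted p = 0.0552). Ifngr2, a chain of the interferon gamma receptor, and Nfya, a subunit of the factor that binds CCAAT, had log2 fold changes of -0.30 and -0.39 (adjusted p = 0.0727 and 0.0911). With library totals only 0 of the 23 passed as lower and 2 as higher, and the median of the list moved from -0.14 to 0.05.

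Of 32 interferon-stimulated genes, 2 rose (Ifit3b by 0.45 and Parp14 by 0.68 on the log2 scale, quasi-likelihood adjusted p = 0.0992 and 0.0799) and 1 fell (Cmpk2 by 0.39, adjusted p = 0.0575) at 10% FDR. Of all genes 10.0% passed as higher and 8.33% as lower. The median of this list was 0.23, and with library totals only 5 passed as higher and 0 as lower. Ifi27, the most abundant, was at 66.5 ± 10.7 and 73.5 ± 3.48 TPM (adjusted p = 0.881).

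Of 11 MHC class II genes, whose products present peptides from outside the cell, 5 rose at 10% FDR (H2-Aa, H2-Ab1, H2-Eb2, H2-Ob and Cd74), beside 10.0% of all genes. Cd74, the invariant chain, was at 15.7, 25.5 and 46.3 TPM at 6 months and at 103.6, 100.7 and 38.0 TPM at 24 months. Mouse 5 lay below mouse 17, so the ages overlapped, unlike those of H2-K1 and H2-D1. The log2 fold change of Cd74 was 1.36 (standard error 0.42, quasi-likelihood adjusted p = 0.0758), that of H2-Aa 1.22 (adjusted p = 0.0746) and that of H2-Eb2 2.25 (adjusted p = 0.0723). H2-Eb2 had 3, 1 and 1 against 11, 11 and 4 counts, and the expected background was 154% and 90.7% of them. After subtraction of the background 0 of the 10 class II genes still tested passed, beside 28 of 25602 genes, and their median was 0.70. H2-DMa, at 19.7 ± 2.03 and 20.1 ± 4.05 TPM, was at -0.08 (0.12 with library totals only).

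**Figure D5:**
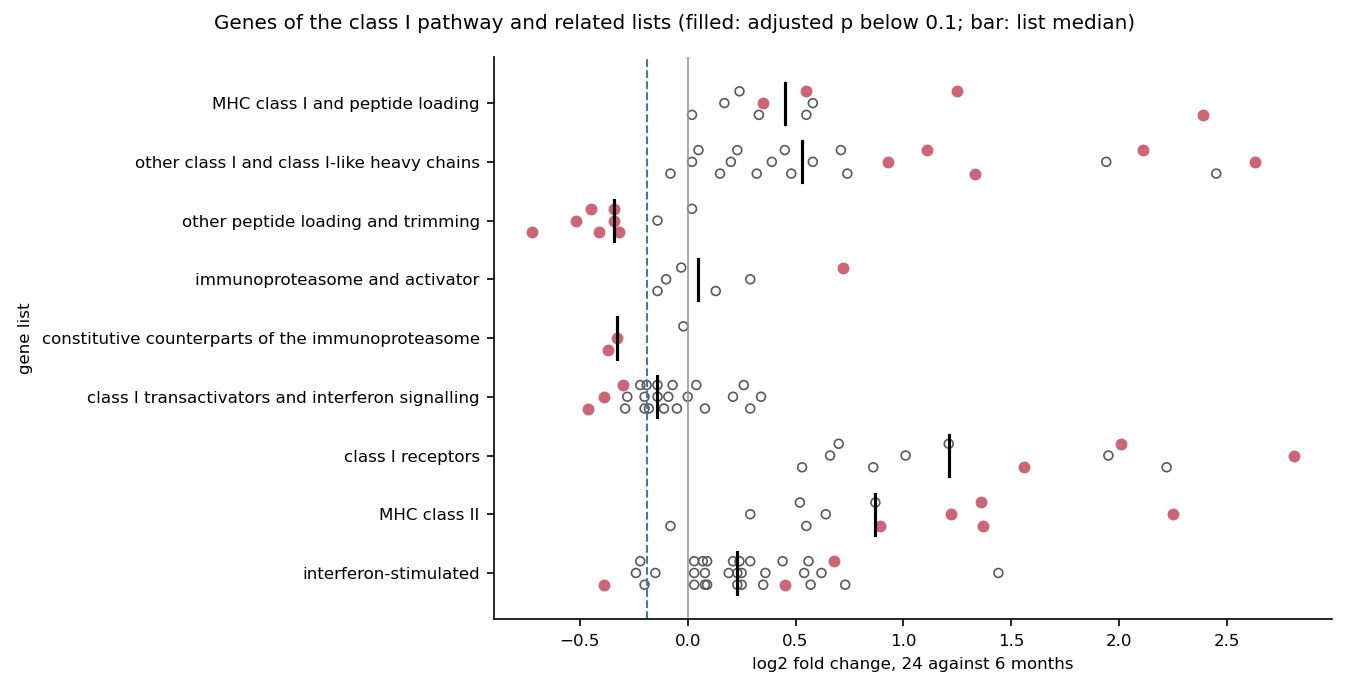
Log2 fold change for 24 against 6 months of each gene of the class I pathway and related lists, filled where the quasi-likelihood adjusted p was below 0.1, with the median of each list as a bar and the median of genes past 5 CPM (-0.19) as a dashed line. The 9 other loading and trimming genes lie mostly below 0 and the 20 other heavy chains mostly above it.

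Receptors that read class I molecules had few reads, and the share of the expected background in them differed. Of 11 such genes 3 passed 10% FDR as higher, beside 10.0% of all genes. Cd8a, a chain of CD8, had 0, 2 and 1 counts against 6, 14 and 4, where the expected background was 275% and 105% of its counts. Cd8b1, the other chain of CD8, had 2, 3 and 1 against 12, 8 and 6 counts (56.1% and 39.7%). Cd160, a receptor of natural killer and T cells, was at 0.360 ± 0.201 and 1.149 ± 0.360 TPM (23.1% and 23.0%; log2 fold change 1.56, quasi-likelihood adjusted p = 0.0633). Lilra5 was at 0.479 ± 0.136 and 0.819 ± 0.131 TPM (17.1% and 31.9%) and did not pass the quasi-likelihood test (adjusted p = 0.233).

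Markers of cell types known to express class I genes were measured beside them. The 11 microglia markers summed to 693.9 to 736.2 TPM at 6 months and to 773 to 901.3 TPM at 24 months, and their median log2 fold change was 0.18. Of them 6 were fitted higher and 5 lower, and 1 passed 10% FDR in each direction. Among genes past 5 CPM, 0.927% passed as higher and 22.5% as lower. C1qb, a complement gene, was at 187.3 ± 7.26 and 230.3 ± 50.0 TPM, with 288 TPM in 24-month mouse 2 and 201.1 and 201.8 TPM in mice 4 and 5. P2ry12 was at 119.9 ± 4.45 and 123.1 ± 13.4 TPM (log2 fold change -0.08). The 12 endothelial markers summed to 162.3 to 197.1 and to 136.7 to 222.6 TPM, with 0 called by edgeR's quasi-likelihood test (0 at an unadjusted p under 0.05), by its other tests or by DESeq2. The 12 T cell markers summed to 9.29 to 10.6 and to 13.1 to 19.2 TPM, 4 of them called higher, beside 10.0% of all genes. All 12 were fitted higher (19231 of 32905 genes in all), and in 8 the ages did not overlap, beside 20.0% of all genes. Cd3e, named after its values were seen, had 4 to 7 and 9 to 10 counts, of which the expected background was 61.7% and 97.8%. After subtraction of the background 0 of the 9 T cell markers still tested passed, again beside 28 of 25602 genes. All 9 were still above 0, with a median of 0.44, beside 13460 of the 25602 genes.

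The 10 neuron markers summed to 5823 to 6400 and to 4648 to 5830 TPM. Of them 3 were called lower, beside 22.5% of the genes past 5 CPM, where all 10 lie. The 10 B cell and plasma cell markers summed to 114.3 to 184.2 and to 205.0 to 332.4 TPM, and Igkc was at 0.852 to 3.24 TPM at 6 months and at 140.8, 175.3 and 7.36 TPM in 24-month mice 2, 4 and 5. The astrocyte markers summed to 3243 to 3436 and to 3689 to 3897 TPM, those of oligodendrocytes to 1557 to 2452 and to 926 to 2802 TPM, those of red blood cells to 345.5 to 443.3 and to 278.1 to 389.5 TPM, those of choroid plexus to 42.8 to 119.8 and to 55.8 to 124.3 TPM, and those of meningeal fibroblasts to 27.1 to 68.3 and to 30.9 to 81.6 TPM. None of these markers was at 0 in all libraries. The part of these cells in the level of the class I genes was not tested.

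The 8 class I genes on chromosome 17 lie between positions 33915899 and 36032855, and 130 other tested genes outside the lists lie in that interval. Their median log2 fold change was 0.14, and 15 passed 10% FDR as higher, beside 10.0% of all genes. Of the 56 past 5 CPM, 1 passed as higher and 1 had non-overlapping ages in that direction, and their median was -0.12, beside 0.28 for the class I genes past 5 CPM.

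Over the 6 libraries the mean standardized log2 CPM of the 6 class I genes past 5 CPM was -0.93, -0.91 and 0.14 in mice 10, 11 and 17 and 0.23, 0.85 and 0.62 in mice 2, 4 and 5. Mouse 17 was thus closer to the 24-month mouse 2 than to the other 6-month mice. Of 11635 other genes past 5 CPM, those most like this pattern by Pearson correlation over the 6 libraries were Tnk2 (0.997), Slc8b1 (0.986), Sik3 (0.975), Cnnm3 (0.973) and Adra1b (0.971), and 46 were above 0.9. These correlations describe 6 libraries of 2 ages and carry no test.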

How the data were processed

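RNA-seq libraries of the cortex of 6 mice were analysed. The authors trimmed the 75 bp single-end reads (Trim Galore 0.6.4), mapped them to GRCm38 with STAR 2.7.3a (GENCODE vM23) and counted them on exons with featureCounts (Subread 2.0.0, minimum mapping quality 15), without strand. The deposited counts were whole numbers and were used as deposited. The deposited TPM values, which the authors computed from counts and exonic length, were used for levels and ratios. Gene positions came from GENCODE vM21, in which 54673 identifiers were found, 567 more without their version (H2-D1 among them), and 181 were not.

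The genes and all lists were chosen with earlier results of these data known. Genes whose counts summed to at least 10 in the 6 libraries were tested for differential expression in edgeR 4.0.16 under R 4.3.3, with TMM factors, the quasi-likelihood test and no covariates, and with Benjamini-Hochberg adjustment over all genes tested. The study states 1% FDR and edgeR but no test within it, and 10% was used as a wider threshold. Alternatives were the likelihood ratio and exact tests, DESeq2 1.42.0, limma 3.58.1 on log2(TPM + 1), other scalings and filters, subtraction of expected background counts, and each mouse left out in turn. The ratios within a library and the comparison with genes past 5 CPM were added after the values were seen. The test was tested on counts simulated for the 32905 genes with 200 genes changed 2-fold, of which 197 were among the 227 called at 10% FDR. The changed genes were drawn from those with high expected counts. Every gene had the same dispersion, and no difference in background between the ages was simulated. The simulation therefore cannot speak to genes with few counts, to smaller changes or to calls that depend on a single mouse.

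Named were all 10 genes, of each other list the 2 with the highest mean TPM and the 3 with the smallest p, of marker lists up to 2, and the 5 genes most like the pattern (log2 of CPM + 0.05). Calr, Cd3e, Gm11131, Gm19412 and other genes given only in counts of calls were named after their values were seen. Promoters were those of RefSeq, aligned with Biopython 1.88. Ratios and exact tests were computed in Python 3.11.15 (scipy 1.17.1, numpy 2.4.6, pandas 2.3.3). The mice are separate animals. The p-values of edgeR, DESeq2 and limma set the age difference against a spread between mice that is estimated partly over all genes. Those of the exact permutation test come from reassigning the mice to the ages. A marker gene that the lists first held is not reported here. Intervals on counts cover counting error only.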

Additional observations from a re-analysis of the deposited data

How the results depend on the processing

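The number of genes passing 1% FDR (0) became 1 with edgeR's likelihood ratio test and 1 with its exact test. The number passing 10% FDR (4) became 7 with library totals only, 0 among the 7 tested with a mean of at least 1 CPM, 0 after background subtraction and 0 with limma on TPM, and it was 0 to 4 with a mouse left out. The number with non-overlapping ages (5) became 8 with library totals only and was 5 to 9 with a mouse left out, the highest without 6-month mouse 17. The 20.0% of all genes given above is for TMM scaling with every mouse, and that share was not counted for these settings. With a mouse left out an age group is smaller, so the ages overlap less readily in any gene. The median log2 fold change (0.45) became 0.64 with library totals only, 0.61 with TMM over genes above 1 CPM and 0.57 with filterByExpr, and it was 0.34 to 0.52 with a mouse left out. The 1.41-fold ratio of summed H2-K1 and H2-D1 became 1.30 in CPM per exonic kb and was 1.31 to 1.47 with a mouse left out. B2m (0.02) was -0.05 to 0.09 with a mouse left out and reversed only without 24-month mouse 5. Of 167 values of single genes under the alternatives, 135 kept direction and side of 10% FDR, 27 lost the call, 4 gained it and 1 reversed. The causes were not tested. No paired analysis was possible because the ages share no mouse numbers. Depth limits H2-Q4, H2-Q7 and Nlrc5, with 1 to 58 counts per library.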
